A study of Homo sapiens with 9 samples.

Results

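The baseline transcriptome of 143B osteosarcoma cells was read from the 3 control libraries, of 9 libraries in the series. The control cells received no XD23 and were collected at 0 h. The other 6 libraries came from the same line after 24 h or 48 h with 0.5 µM of XD23, a compound known by its code name, and were not used here. Members were the 13234 of 36810 listed genes whose mean over the control libraries was at least 1 FPKM. Libraries were made from messenger RNA pulled down by its poly(A) tail and were sequenced from both ends, per the labels. FPKM counts fragments scaled to the length of the gene and to the depth of the library, so levels of different genes can be compared per length.

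Osteosarcoma is a malignant tumour of bone whose cells resemble osteoblast precursors to varying degrees. Osteoblasts commit under the transcription factors RUNX2 and then SP7, lay down a matrix of type I collagen, and later mineralise it. 143B is a derivative of the HOS line that was selected for loss of thymidine kinase activity, and it is used as an aggressive model of the disease. It is a single line grown on plastic with serum, without stromal, immune or bone cells, which limits it as a model of a tumour.

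The 3 libraries held 20434029, 19986524 and 18341542 fragments, worked out from the FPKM values. At this depth, 1 fragment per kilobase of gene corresponds to 0.0489 to 0.0545 FPKM, so levels well below 1 rest on few fragments in short genes. Genes at or above 1 FPKM numbered 13217, 13254 and 13345 in the 3 libraries. In the text, values are given in the order of control libraries 1, 2 and 3, and errors are SD over these 3 (n = 3). Nothing in the labels says that they came from separate cultures, so this spread may be technical. They were not 1 library deposited more than once: the squared differences between pairs were 2.0 to 2.3 times what counting noise alone gives. Because bulk RNA was measured, expression in fewer cells and less RNA per cell cannot be told apart.

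Of 17156 nuclear protein-coding genes with a row, 10674 (62.2%) had a mean of at least 1 FPKM and 3936 (22.9%) a mean of at least 10. Means of 100 or more were reached by 244 and means of 1000 or more by 4. The median over all 17156 was 2.62 FPKM, and this value and the 62.2% are the reference for the gene lists below. A further 5683 lay above 0 but below 1, and 799 (4.66%) were listed at 0 in all 3 libraries. The members also included 852 pseudogenes, 544 antisense genes and 388 long intergenic RNAs. Counting is not stated to use strand, so reads of antisense genes and of the genes they overlap cannot be told apart.

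**Figure D1:**
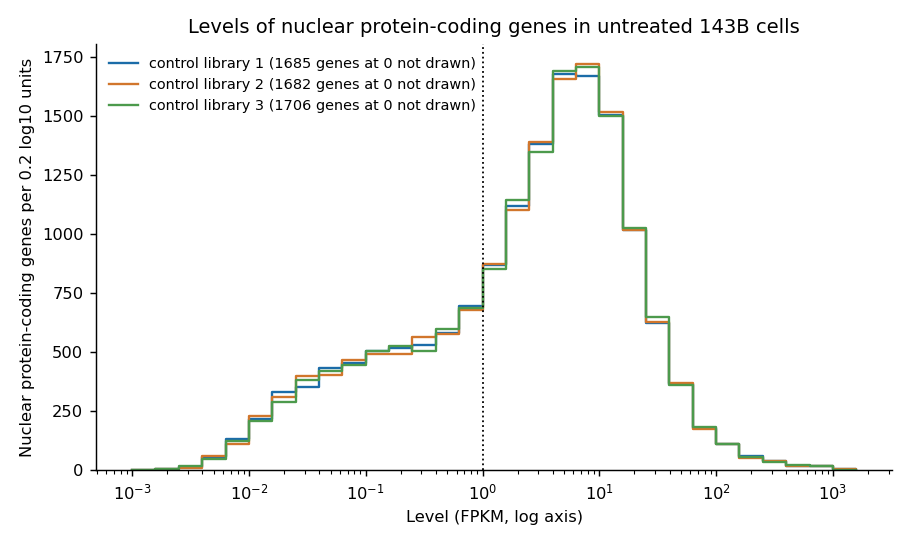
Number of nuclear protein-coding genes (vertical axis) by level in FPKM on a log axis, in bins of 0.2 log10 units, with 1 line for each control library and a dotted line at 1 FPKM. The 3 lines lie nearly on each other, with most genes between 1 and 100 FPKM and a long shoulder below 1.

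The spread between libraries narrowed with level. The median CV of protein-coding genes was 40.0% below 1 FPKM, 5.62% from 1 to 10, 3.27% from 10 to 100 and 2.74% above. In the highest class, the median ratio of the highest to the lowest library was 1.05. At the threshold itself membership was loose: 12393 genes were at or above 1 FPKM in all 3 libraries, and 1880 in some but not all. PDZRN3, SYCE1L and TRAPPC2 lay just inside with means of 1.002, 1.0007 and 1.0004 FPKM. DHRSX, ABCA10 and GAB3 lay just outside with 0.9997, 0.9994 and 0.9986.

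A few genes took a large share of the RNA. The 10 highest genes held 24.1% ± 0.80 of the summed FPKM, the 100 highest 43.4% ± 0.53, and the 206 highest held 50%. Genes encoded by mitochondrial DNA took 27.9%, 28.9% and 27.3% of the FPKM, but 7.3% to 7.7% of the fragments, since FPKM divides by their short lengths. Without them, 762 genes held 50%. MT-CO3, a subunit of cytochrome c oxidase, was the highest gene of all at 12098 ± 287 FPKM.

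Among nuclear protein-coding genes, 16 of the 25 highest encoded ribosomal proteins, and all ribosomal protein genes together took 9.26% ± 0.32 of the FPKM. The other 9 were EEF1A1, TMSB10, EEF2, GAPDH, MMP1, HMGA1, ACTB, HSP90AB1 and FTL. EEF1A1, a translation elongation factor, led with 1791, 1736 and 1782 FPKM, and TMSB10, an actin-binding thymosin, followed with 1729, 1600 and 1672. GAPDH, a glycolytic enzyme, stood at 1004, 972 and 970. Most of these genes serve translation, the cytoskeleton or glycolysis, as in most growing cells, while MMP1, HMGA1, HSP90AB1 and FTL do not.

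MMP1, a secreted collagenase that cleaves fibrillar collagen, was the 7th highest nuclear protein-coding gene with 885, 911 and 974 FPKM (923 ± 46.1). The gene (ENSG00000196611) lies on the minus strand of chromosome 11, from 102789920 to 102798160 in GRCh38. HMGA1, a chromatin protein that bends AT-rich DNA and is abundant in embryonic and tumour cells, was the 8th with 853, 935 and 896 FPKM (894 ± 41.3). It (ENSG00000137309) lies on the plus strand of chromosome 6, from 34236873 to 34246231. Their 3 values overlap, so their order is not settled. HMGA2, its sister gene, was at 6.85 ± 0.22 FPKM, and the ratio of HMGA1 to HMGA2 was 131 ± 4.3.

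The 10 highest nuclear genes that were not protein-coding were all pseudogenes, led by EEF1A1P5 at 831 ± 42.0 FPKM. These are near-identical copies of abundant genes such as EEF1A1 and ribosomal protein genes, so their reads may belong to the parent gene and their levels are uncertain. Among nuclear protein-coding genes averaging 10 FPKM or more, RPS26 varied most between libraries, with 105, 94.2 and 67.5 FPKM and a CV of 21.7%. TUSC1, NDUFA1 and AK6 came next, with CVs of 16.1%, 15.4% and 15.2%. RPS26 also has copies, and NDUFA1 and AK6 share 44.5% and 24.5% of their exon length with other annotated genes. The values of RPS26, NDUFA1 and AK6 are therefore uncertain.

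Most of the listed osteoblast transcription factors reached 1 FPKM, though SP7 did not. Most of the osteoblast matrix and mineral genes, type I collagen included, stayed below it. Of 13 osteoblast transcription factors, 11 were at or above 1 FPKM, with a median of 5.89. RUNX2, which commits cells to bone (ENSG00000124813, plus strand of chromosome 6, 45328157 to 45664349 in GRCh38), had 6.02, 6.61 and 6.38 FPKM. The 3 values lay close together. TWIST2 and TWIST1, which hold back osteoblast maturation, had 13.0 ± 1.02 and 5.89 ± 0.53. ATF4, a stress and amino acid regulator also used by osteoblasts, was far higher at 296 ± 2.8, and FOSL1, an AP-1 subunit, stood at 179 ± 5.7. MSX1, FOSL2, DLX5 and DLX6 lay between 2.47 and 11.9. SP7, which acts after RUNX2, was listed at 0, 0 and 0.0322 FPKM, or 2 fragments in all, and DLX3 had 21 fragments.

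Only 5 of 13 osteoblast matrix and mineral genes reached 1 FPKM, with a list median of 0.304 against 2.62 over all protein-coding genes. SPARC, a collagen-binding glycoprotein made by many mesenchymal cells, was the highest with 43.3, 42.2 and 40.1 FPKM. ANKH, a pyrophosphate exporter, had 6.32 ± 0.19, and SPP1, which encodes osteopontin, 2.53 ± 0.15. The type I collagen genes were low: COL1A1 had 0.625, 0.317 and 0.545 FPKM and COL1A2 had 0.0271, 0.0139 and 0.0252, or 14 fragments in all. ALPL, the alkaline phosphatase of mineralising osteoblasts, had 14 fragments (0.0985, 0.101 and 0.0366 FPKM). BGLAP, which encodes osteocalcin, had 2 fragments. IBSP and TNFSF11 had no row in the table and were not analysed here. The label names an osteosarcoma line, and these libraries carried RUNX2 but little SP7, type I collagen, ALPL or BGLAP transcript.

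Markers of later or neighbouring bone cells were mostly low. Of 4 osteocyte markers with a row, PDPN alone passed 1 FPKM, at 6.33 ± 0.27, and MEPE was listed at 0 in all 3 libraries, where 3 fragments would be 0.0206 FPKM. Among 6 osteoclast markers, OSCAR had 11.7, 13.7 and 14.3 FPKM and the other 5 had means of 0.457 or less. SOX9, a master regulator of cartilage, had 34.3, 36.7 and 34.8 FPKM, 5.56 ± 0.12 times the level of RUNX2. The other 12 cartilage markers lay below 1, among them COL2A1 at 0.0231 ± 0.0078 and ACAN at 0.129 ± 0.018. COL2A1 and ACAN are matrix genes that SOX9 is known to activate in chondrocytes.

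**Figure D2:**
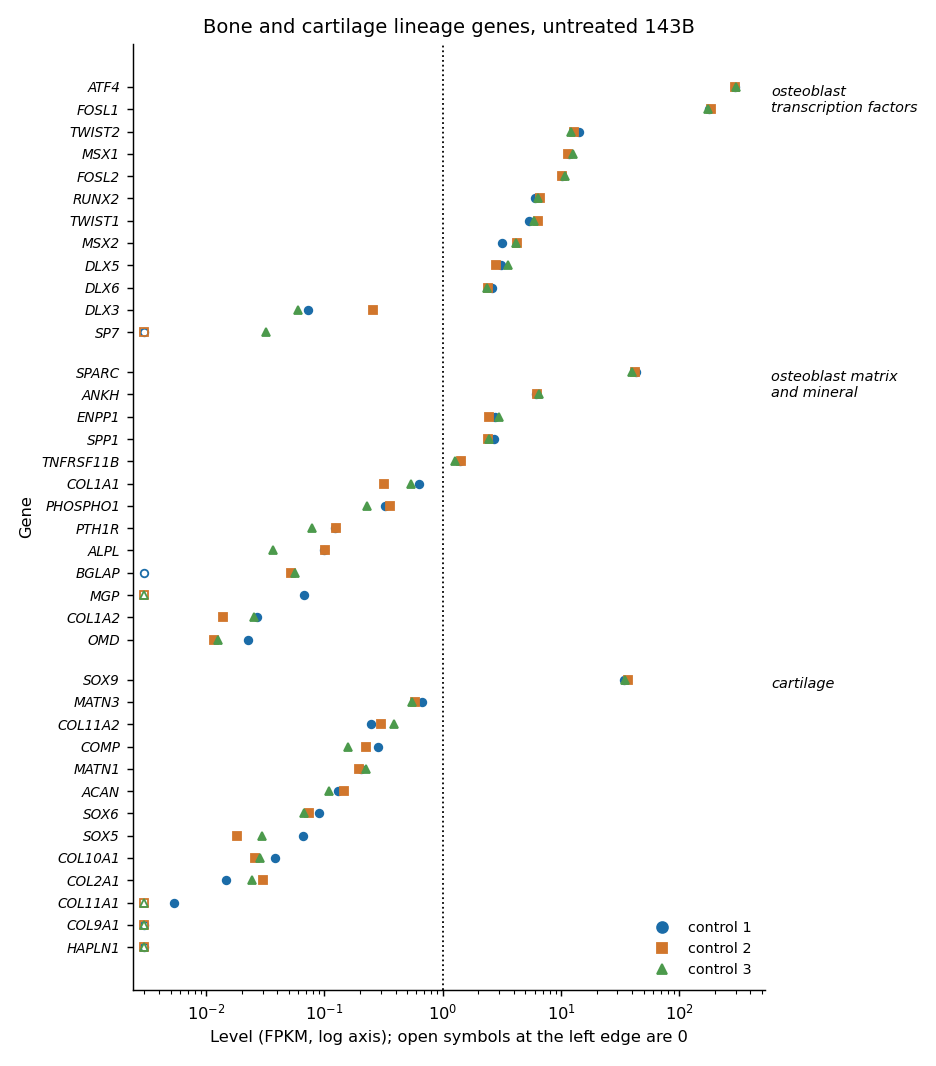
Level of osteoblast and cartilage lineage genes (rows) in FPKM on a log axis, with 1 symbol for each control library, open symbols for values of 0 and a dotted line at 1 FPKM. ATF4, FOSL1, SPARC and SOX9 lie far to the right, while SP7, BGLAP, COL1A2 and most cartilage genes lie below 0.1.

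Mesenchymal genes were present in part. Of 21 stromal and mesenchymal markers, 14 reached 1 FPKM, with a median of 3.52. VIM, the intermediate filament vimentin, had 304, 297 and 311 FPKM. NT5E, ALCAM, ZEB1, PDGFRA, SNAI2, CDH2 and FN1 lay between 11 and 17.6. The fibroblast and pericyte genes THY1, DCN, LUM and PDGFRB were near 0, at 4, 7, 1 and 16 fragments. PDGFRA had 12.4, 12.9 and 12.9 FPKM, whereas PDGFRB had 0.0549, 0.021 and 0.0382, so the receptors for platelet-derived growth factor were not alike. S100A4 varied between 0.37 and 0.98.

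Markers of other lineages were checked for cells that do not belong. None of 12 blood cell markers reached 1 FPKM, and PTPRC, which encodes the leukocyte antigen CD45, had 1 fragment in all 3 libraries. The highest, NKG7, was at 0.411 ± 0.11. Of 8 endothelial markers, TIE1 (11.6, 12.4 and 12.5 FPKM) and ERG (1.67, 1.70 and 1.66) passed, but PECAM1 had 0.386 ± 0.044 and CDH5 and VWF had 6 and 10 fragments. Among 12 epithelial markers, KRT18 (157 ± 3.9), its keratin partner KRT8 (27.0 ± 0.94) and EPCAM (3.88 ± 0.39) passed, while KRT5 and CDH3 had 1 and 3 fragments and CDH1 had no row. KRT18 was 5.80 ± 0.23 times KRT8. Among other lineages, SNAP25 in the neural list reached 1.31, MYH3 in the muscle list 2.19, and PPARG and LPL in the fat list 2.55 and 2.50. The liver and melanocyte list had no member at 1 FPKM. Among pluripotency factors, KLF4 had 8.95 ± 0.31 and SOX2 1.19 ± 0.41, while POU5F1 had 0.113.

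HOX genes, which mark a cell's position along the body axis and the limb, were broadly present. All 9 HOXB genes with a row reached 1 FPKM (median 9.97), as did 8 of 11 HOXA, 7 of 9 HOXC and 4 of 9 HOXD genes. HOXB9 led with 23.8, 26.0 and 24.2 FPKM, followed by HOXB4 (20.04 ± 0.62) and HOXB7 (18.7 ± 0.42), and the values of these 3 genes did not overlap. In the other clusters the highest were HOXA9 at 12.9 ± 0.35, HOXC10 at 8.70 ± 0.40 and HOXD13 at 9.81 ± 0.25. HOXD13, a gene of the distal limb, was 17.6 ± 2.1 times HOXA13. Between HOXD9 (6.64 ± 0.31) and HOXD13, the genes HOXD10, HOXD11 and HOXD12 lay at 0.882, 0.634 and 0.161, so the level was not graded along the cluster. HOXC12 had 1 fragment. HOXD4, HOXD3, HOXD1, HOXC5 and HOXA7 share more than 50% of their exon length with other annotated genes, and their values are uncertain.

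**Figure D3:**
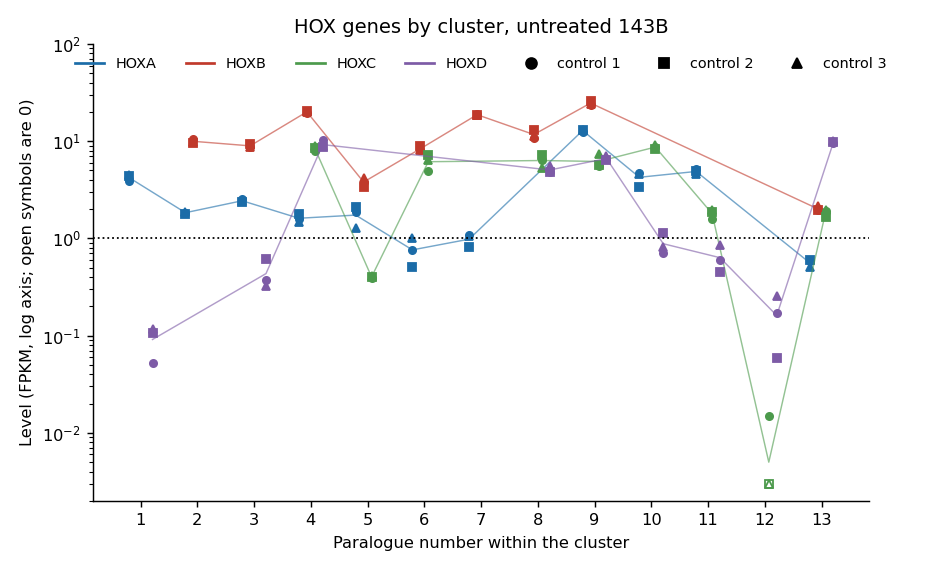
Level of HOX genes in FPKM on a log axis by paralogue number, with 1 colour for each cluster, 1 symbol shape for each control library, open symbols for 0 and lines through the means. HOXB genes lie at or above the others at most positions, and the HOXD line drops between HOXD9 and HOXD13.

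Among other patterning factors, TBX15 stood out with 89.7, 89.3 and 88.4 FPKM, the 284th highest of all nuclear protein-coding genes. TBX15 encodes a T-box factor of limb and skeletal mesenchyme. SHOX2 (6.62 ± 0.22) and PITX1 (3.74 ± 0.34), a hindlimb factor, were lower, and TBX4, another hindlimb gene, had 7 fragments. TBX5, its forelimb counterpart, had no row.

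Receptor tyrosine kinases relay growth factor signals from the cell surface, and 26 of 56 with a row reached 1 FPKM. The list median was 0.643 against 2.62 over all protein-coding genes. AXL, the receptor for GAS6, was the highest with 74.6, 74.4 and 72.1 FPKM. EGFR followed with 29.5, 30.8 and 29.9, MET, the hepatocyte growth factor receptor, with 22.7, 24.2 and 22.5, and DDR2, a collagen receptor, with 20.3, 20.6 and 19.8. The values of AXL, EGFR, MET, DDR2 and EPHA2 did not overlap between neighbours in this order. AXL was 2.45 ± 0.06 times EGFR. PDGFRA, TIE1 and RYK lay at 11.5 to 12.7, each overlapping the next, and IGF1R had 11 ± 0.46. ROS1 was listed at 0, and MUSK, NTRK3, MST1R, EPHA5 and EPHA10 had 1 to 5 fragments.

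**Figure D4:**
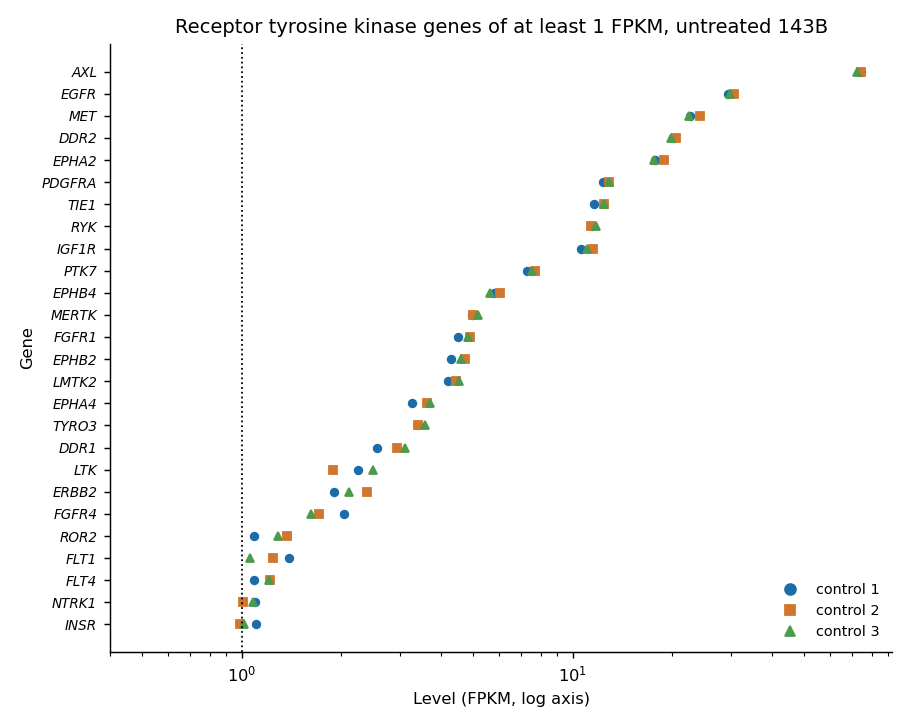
Level of the 26 receptor tyrosine kinase genes at or above 1 FPKM (rows, by mean) on a log axis, with 1 symbol for each control library and a dotted line at 1 FPKM. AXL stands apart at 72.1 to 74.6, and the lowest genes lie at the threshold.

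For transforming growth factor beta and bone morphogenetic proteins, 10 of 15 receptor genes reached 1 FPKM. TGFBR2, the receptor that binds the ligand first, had 53.1, 54.4 and 54.8 FPKM, 4.74 ± 0.14 times its partner TGFBR1 (11.4 ± 0.35). BMPR2 had 8.70 ± 0.26, BMPR1A 5.62 ± 0.07, and ACVRL1 had 9 fragments. Of 26 cytokine receptor genes, 17 passed. IL6ST, the signal chain shared by the interleukin 6 family, led with 26.8, 29.1 and 28.5 FPKM. Its partners OSMR (15.0 ± 0.44) and LIFR (9.03 ± 0.05) were also present, as were both interferon gamma receptor chains, IFNGR2 (21.7 ± 0.89) and IFNGR1 (10.8 ± 0.54).

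In the TNF receptor family 11 of 22 passed, led by TNFRSF12A, the receptor for TWEAK, at 49.5 ± 2.7 FPKM. TNFRSF10B, a death receptor for TRAIL, had 47.0, 45.8 and 45.7, which was 4.82 ± 0.38 times TNFRSF10A, the other TRAIL death receptor. The decoy receptor TNFRSF10D had 17 fragments. Wnt receptor genes reached 1 FPKM in 11 of 14 cases, with FZD6 at 26.7 ± 0.64 and the coreceptors LRP5 at 12.9 ± 0.80 and LRP6 at 10.8 ± 0.23. LGR5 and LGR6, which bind R-spondins, had 0.074 and 0.148. In the Notch pathway NOTCH2 (7.89 ± 0.46), JAG1 (4.82 ± 0.43) and DLL1 (2.85 ± 0.25) led, and NOTCH4 and DLL4 lay below 0.1.

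Integrins anchor cells to matrix, and 14 of 26 were at or above 1 FPKM. ITGA2, the alpha chain of a collagen receptor, had 63.6, 66.7 and 66.0 FPKM, and ITGB1, the beta chain it pairs with, 52.6, 55.1 and 54.1. ITGA6 (27.8 ± 0.36) and ITGA3 (26.4 ± 0.77), of laminin receptors, came next. The leukocyte integrin genes ITGAM, ITGAL, ITGAD and ITGB7 had 2 to 8 fragments.

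Of 40 G protein-coupled receptors, 18 passed, and the protease-activated receptors F2RL1 (51.0, 47.9 and 51.5 FPKM) and F2R (17.5 ± 0.72) were the highest. LPAR3, for lysophosphatidic acid, had 16.2 ± 0.70. EDNRB and PTGER3 were listed at 0. Among 46 nuclear receptors 24 passed, with NR1D2, a clock repressor, at 27.7 ± 0.82, NR2C2 at 13.9 ± 0.45, and NR3C1, the glucocorticoid receptor, at 8.71 ± 0.28. The oestrogen receptor gene ESR1 had 19 fragments.

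Secreted genes spanned the whole range of levels. In proteases and their inhibitors, 26 of 44 reached 1 FPKM. Beside MMP1, genes of plasminogen activation were present: PLAU, which encodes the urokinase activator, had 101, 94.2 and 96.7 FPKM, and its receptor PLAUR 22.5, 22.3 and 22.2. PLAU exceeded PLAUR in every library. The membrane collagenase MMP14 had 52.7 ± 0.72, so MMP1 was 17.5 ± 0.76 times as high, and it was 17.1 ± 2.3 times its inhibitor TIMP1 (54.4 ± 4.3). ADAMTS4, MMP28 and MMP7 had 5 to 7 fragments.

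Growth factor genes passed in 19 of 44 cases, with a median of 0.458. CCN2, or connective tissue growth factor, had 170, 158 and 156 FPKM, and CCN1 62.5, 57.4 and 57.6, both matricellular proteins. The heparin-binding factor MDK had 24.2 ± 1.76 and VEGFA, which drives vessel growth, 16.3 ± 0.23. HBEGF, a ligand of EGFR, had 6.11 ± 0.30. PTN and VEGFD were listed at 0, and IGF1, FGF7 and FGF10 had 1 to 4 fragments.

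Of 43 cytokine and chemokine genes, 15 reached 1 FPKM. IL1A was the highest with 93.6, 95.1 and 94.6 FPKM, and was 5.03 ± 0.35 times IL1B (19, 17.6 and 19.97). Both encode forms of interleukin 1. CXCL8, a neutrophil chemokine, had 26.0, 26.2 and 25.3, and IL11, a bone-active cytokine of the interleukin 6 family, 7.24 ± 0.10. CSF1 (3.63), CLCF1 (3.47), CSF3 (3.16) and LIF (2.89) each overlapped the next in this order. CXCL12, the stromal chemokine, had 1 fragment, and IL10 was listed at 0.

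**Figure D5:**
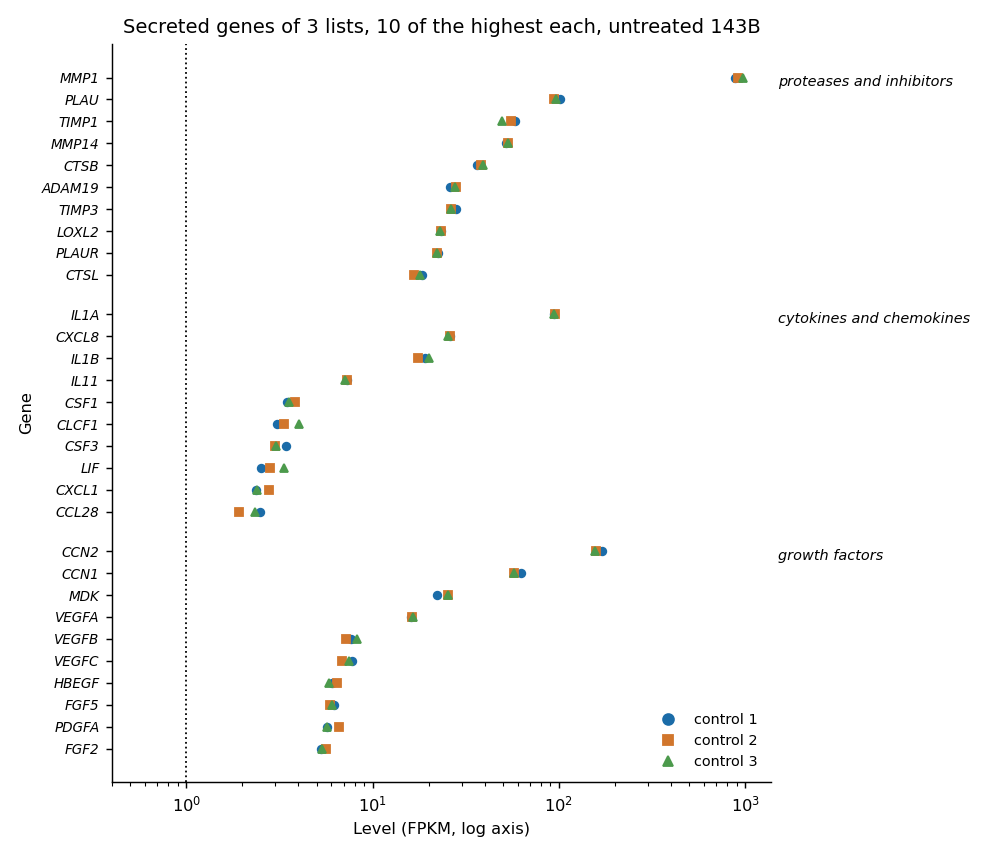
Level of 10 of the highest genes from each of 3 secreted lists (rows) in FPKM on a log axis, with 1 symbol for each control library and a dotted line at 1 FPKM. MMP1, CCN2, PLAU and IL1A lie well to the right of the rest of their lists.

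The Wnt ligand and antagonist list had 10 of 31 members at 1 FPKM. DKK1, the secreted Wnt inhibitor named in the series title, had 22.3, 19.4 and 21.0 FPKM, and SFRP1, another inhibitor, 22.3, 22.2 and 23.1, so the order of the highest pair was not settled. WNT7B (7.38 ± 0.49) and WNT5A (7.25 ± 0.31) were the highest ligands. WNT1, WNT2 and RSPO3 were listed at 0. In the TGF-beta family 18 of 33 passed: FSTL1, a secreted glycoprotein, 26.7 ± 0.82, TGFB1 19.5 ± 0.49, BMP7 9.90 ± 0.33 and GREM1, a BMP antagonist, 8.06 ± 0.25. Of 7 IGF binding proteins 6 passed, led by IGFBP4 at 33.9 ± 1.45, IGFBP7 at 28.9 ± 1.17 and IGFBP6 at 22.4 ± 2.3.

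Collagens reached 1 FPKM in 16 of 44 cases. COL6A3 (28.5, 32.7 and 29.9 FPKM) and COL5A2 (30.1, 30.5 and 30.2) overlapped and led, followed by COL6A2 (23.8 ± 0.50) and COL6A1 (16.4 ± 0.92). The type VI chains form microfibrils around cells. The type IV chains of basement membrane, COL4A1 and COL4A2, had 12.8 ± 0.93 and 11.3 ± 0.30. COL6A3 was 45.5 to 103 times COL1A1, and COL1A1 rested on 262 fragments. Of 39 matrix glycoproteins and proteoglycans 31 passed, with a median of 6.17. LGALS1, a galectin, had 473, 465 and 497 FPKM, and SDC4 (54.4 ± 0.97), TGFBI (41.0 ± 2.1) and the laminin chains LAMB1 (32.2 ± 1.13) and LAMC1 (32.0 ± 0.65) followed. POSTN and ELN had 5 and 8 fragments.

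All 20 genes of the RAS to ERK cascade reached 1 FPKM, with a median of 12.6. NRAS had 87.0, 90.9 and 89.0 FPKM and HRAS, another small GTPase of the family, 13.7, 14.1 and 14.2, so NRAS was higher in all 3 libraries. The phosphatase gene PTPN11 had 44.8 ± 0.87 and the kinase gene MAP2K1 31.3 ± 0.65. BRAF was low at 1.64 ± 0.06.

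Of 20 genes known to be induced by ERK or to restrain it, 19 passed, with a median of 27.5 against 2.62. FOSL1 (177, 185 and 174 FPKM), CCND1, which encodes cyclin D1 (146, 153 and 149), and the immediate early gene IER3 (105, 102 and 104) were highest. The ERK phosphatase genes DUSP5 (69.2 ± 3.9) and DUSP6 (65.6, 62.3 and 68.6) overlapped. PHLDA1, SPRED1 and EGR1 had 59.8, 33.2 and 30.0. The exception was SPRY1, at 0.692 ± 0.25.

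Oncogenes reached 1 FPKM in 42 of 48 cases, with a median of 8.76. After HMGA1 came MCL1, which blocks cell death (194, 190 and 193 FPKM), CCND1, and JUN, an AP-1 subunit (107, 104 and 105). AURKA, ETS1, YES1 and YAP1 lay between 42.2 and 67.6. MYC had 5.41, 5.87 and 6.2 FPKM and MYCN 5 fragments. Of 39 tumour suppressors with a row, 35 passed. CDKN1A, a cell cycle inhibitor, had 33.6, 35.6 and 36.8, and RB1 12.6, 12.9 and 12.5. FHIT, WWOX and DLG2 were low at 0.618, 0.264 and 0.0507.

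CDKN2A, which encodes p16 and ARF, had 1 fragment in the 3 libraries (0.0126, 0 and 0 FPKM). The gene (ENSG00000147889) lies on the minus strand of chromosome 9 from 21967753 to 21995301. Its neighbours CDKN2B and MTAP had no row and were not analysed here. Within 5 megabases to each side, 26 protein-coding genes had a row, CDKN2A included, and 15 of the 26 reached 1 FPKM. The neighbours named here were chosen after their values were seen. Toward the telomere KLHL9 had 17.6 ± 0.78 and FOCAD 9.34 ± 0.12, and on the other side DMRTA1 had 1.67 ± 0.04 and CAAP1 16.8 ± 0.88. Of the 5 interferon genes in this window, 4 were listed at 0. Copy number was not measured.

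TERT, the catalytic subunit of telomerase, had 0.661, 0.566 and 0.488 FPKM, from 200 fragments. The RNA subunit TERC had 3 fragments, but it shares 81% of its length with another gene and most of its transcript carries no poly(A) tail, so its value is uncertain. The H/ACA protein genes NOP10 (234 ± 13.9), NHP2 (79.9 ± 2.9) and DKC1 (53.1 ± 1.36) were high. ATRX and DAXX, whose loss accompanies telomerase-free telomere maintenance in other tumours, had 11.1 ± 0.62 and 16.1 ± 0.87.

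Proliferation genes were at or above 10 FPKM in 20 of 20 cases, with PCNA at 116 ± 2.1, TOP2A at 106 ± 2.2 and MKI67 at 37.8, 44.1 and 38.7. In glycolysis, 20 of 27 isoenzyme genes passed. ENO1 had 552 ± 15.2, PKM 207 ± 1.5, and LDHA 152, 143 and 146 FPKM, 34.0 ± 3.2 times LDHB. TK1, the thymidine kinase whose activity the line was selected to lack, had a transcript level of 11, 9.03 and 9.66. CDA, cytidine deaminase, was listed at 0, where 3 fragments would be 0.053 FPKM.

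Of 39 surface proteins studied as therapy targets, 25 passed: CD44, a hyaluronan receptor, 54.0, 55.0 and 52.7, CD47 21.5 ± 0.49, CD99 15.9 ± 0.54, and ULBP1, a ligand of natural killer cells, 14.5 ± 1.07. CD276, or B7-H3, had 6.05, 6.88 and 6.58 FPKM. Among 19 cancer-testis genes with a row, PRAME (51.9, 51.2 and 53.0), ATAD2 (24.9), LAGE3 (16.2) and SPAG9 (13.7) passed, MAGEA4 and DAZL were listed at 0, and 28 more had no row. Of chemotherapy genes, GSTP1 had 147 ± 4.6, TOP2A 106 ± 2.2 and ALDH1A3 40.0 ± 0.73. The efflux pump gene ABCB1 had 0.730 ± 0.024 and SLC19A1, the reduced folate carrier, 1.46 ± 0.10. The insulin-like growth factor 2 mRNA binding proteins IGF2BP2, IGF2BP1 and IGF2BP3 had 39.8, 19.1 and 14 FPKM, LIN28B 2.65, and H19 and DLK1 had 4 fragments and 0.

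Cadherin genes passed in 5 of 14 cases, with CDH2 at 11.3 ± 0.57, CDH4 at 8.04 ± 0.23 and CDH11 at 6.33 ± 0.12. Of 30 named long noncoding RNAs 21 passed, with NORAD at 150, 153 and 149 FPKM and SNHG29 at 147, 138 and 143, then SNHG6 (88.4) and GAS5 (68.3). MALAT1, a nuclear RNA, had 35.6 ± 2.4. As RNA was pulled down by its poly(A) tail, levels of noncoding RNAs without such a tail are uncertain.

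Across the 52 lists, 1032 of 1112 genes had a row. Of these, 603 (58.4%) were at or above 1 FPKM, against 62.2% of all nuclear protein-coding genes. The lists also hold 13 mitochondrially encoded genes and 30 named long noncoding RNAs with a row, so these shares cover unlike sets. In 21 of the 1032 genes at least 50% of the exon length is shared with another gene. Protein-coding genes that share so much were lower. Of protein-coding genes with no shared exon sequence 60.3% reached 1 FPKM, and of those with up to 25% shared 70.5% did. The share was 56.3% at 25 to 50%, 31.2% at 50 to 75% and 6.18% above 75%. PLAUR, LDHB, MIF and ALDOA were named after their values were seen. MIF and ALDOA had 0.167 and 1.98 FPKM with 61.9% and 53.5% of their length shared. The part of the counting in these low values was not tested. CD68, IFNAR2, RTEL1 and IGF2 in the lists above also share at least 50% of their exon length, and their values are uncertain.

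Promoter sequence was compared by level class for nuclear protein-coding genes of at least 1 FPKM. The 250 bases before the start came from RefSeq (GRCh38.p14), with 84.4%, 87.0% and 83.1% of genes matched in the classes of 1 to 10, 10 to 100, and 100 FPKM and over. The matched share was under 80% in the lower classes, so they are not reported. The median CpG observed to expected ratio was 0.825, 0.862 and 0.882 in these classes, against 0.556 over 27305 promoters. These 27305 were the first-listed start of every gene symbol, not filtered by gene type or level. Gene type and level therefore cannot be told apart in comparisons with them. TATAAA, or its reverse complement TTTATA, was found in 4.82%, 4.26% and 13.2% of promoters. The last share is 26 of 197, with a 95% Wilson interval of 9.17% to 18.6% that covers counting error only. Over 27305 promoters the share was 11.1%. Within 50 bases of the start on the gene's strand, TATAAA stood in 1.33%, 1.16% and 7.61%, against 2.92%. The AP-1 motif TGACTCA and its reverse complement TGAGTCA were in 2.56%, 1.91% and 3.55%, against 4.16%. TATAAA and TTTATA can share bases, and a promoter with several matches to a motif was counted once. A match is only a string of letters and not a measured binding site.

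The promoters of 3 of the members described above are shown, 250 bases each, read 5′ to 3′ on the gene's strand, with TATAAA and TGACTCA in capitals. CCN2 and CXCL8 hold TATAAA 32 and 31 bases before the start, and CXCL8 also holds TGACTCA 137 bases before it. HMGA1 holds neither motif in this window. The regions are chr6:131951373-131951622 (minus strand) for CCN2, chr4:73740319-73740568 (plus strand) for CXCL8 and chr6:34236623-34236872 (plus strand) for HMGA1, in GRCh38.p14.
CCN2: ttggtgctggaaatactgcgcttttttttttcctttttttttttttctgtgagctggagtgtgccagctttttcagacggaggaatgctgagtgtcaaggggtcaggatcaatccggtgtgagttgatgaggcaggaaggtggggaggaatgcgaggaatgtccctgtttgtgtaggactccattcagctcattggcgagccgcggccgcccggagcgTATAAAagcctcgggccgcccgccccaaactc
CXCL8: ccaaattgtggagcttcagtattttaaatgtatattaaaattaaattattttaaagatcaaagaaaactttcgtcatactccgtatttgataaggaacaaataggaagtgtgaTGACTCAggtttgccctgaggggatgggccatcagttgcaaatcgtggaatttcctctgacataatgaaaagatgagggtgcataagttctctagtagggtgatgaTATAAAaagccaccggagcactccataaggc
HMGA1: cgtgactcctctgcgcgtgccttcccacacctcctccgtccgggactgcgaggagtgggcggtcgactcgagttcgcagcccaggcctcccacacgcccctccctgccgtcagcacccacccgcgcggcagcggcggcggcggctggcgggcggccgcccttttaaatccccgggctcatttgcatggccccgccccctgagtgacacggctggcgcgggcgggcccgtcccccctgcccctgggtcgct
These sequences show 1 promoter of a member with a TATAAA match only, 1 with both matches and 1 with none.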

How the data were processed

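The authors deposited 1 table of FPKM for 36810 genes in 9 libraries, with replicates kept apart. Per the submitters' processing notes, the build was hg38 and the tools listed are DESeq2, HISAT2, Subread and featureCounts. Their settings, the strand setting and the gene annotation were not given in the sources used here. All 3 control columns were used, 6 columns of other groups were not, and 0 columns lacked a sample.

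Gene types, positions and exon lengths came from GENCODE release 29 (35585 genes found). Whole fragments, with a tolerance of 0.0001, were recovered for 17291 genes from FPKM, this length and a common total for each library. For 13902 genes the whole-number length nearest to GENCODE's was used and for 975 the shortest, so their fragments rest on that choice, and 1 gene was not recovered. Recovered fragments summed to 100.3% of the totals. In simulated data the totals were recovered in 3 of 3 libraries and fragments for 99.0% of genes with another length and 10 or more fragments.

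A gene was a member at a mean of at least 1 FPKM. As 1 group was used, no test was made, and neighbours in an order were called apart only where their 3 values did not overlap. Promoters of genes on chromosome 8 were left out of the level classes. A gene listed at 0 was given the level of 3 fragments over the 3 libraries as its limit, which covers counting error only. The text took its names from the 25 highest protein-coding and 10 highest other nuclear genes, the 8 most variable protein-coding genes of at least 10 FPKM, the 3 genes to each side of the threshold, and in each list the genes set to be always named, up to 8 highest and up to 6 lowest. Not all of these are named. The exceptions are PLAUR, LDHB, MIF, ALDOA and the neighbours of CDKN2A. Members and lists were chosen with earlier results of these data known. Python 3.11.15, pandas 2.3.3 and scipy 1.17.1 were used. The alternatives tried were other thresholds, TPM, median-of-ratios scaling, other definitions of absence, recovered fragments, and leaving out each library. Some genes of the lists are counted but not reported by name here.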

Additional observations from a re-analysis of the deposited data

How the results depend on the processing

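No paired analysis was possible because 1 group was used and no test was made. The number of genes at or above 1 FPKM (13234) was 15897 at a threshold of 0.5, 10588 at 2, 12393 when every library had to pass and 18268 in TPM, where 1 FPKM is 3.39 to 3.43 TPM, and 19714 in TPM without mitochondrially encoded genes. It was 13230 with median-of-ratios scaling. Leaving out each library gave 13213 to 13252 genes, 10667 to 10697 protein-coding genes and 604 to 607 list members. The definition of absence mattered more: the 4641 genes listed at 0 became 10626 at a mean of at most 0.05 FPKM and 15801 at fewer than 10 fragments, and the 799 protein-coding genes became 2956 and 2972. Leaving out each library gave 6377 to 6493 genes and 1105 to 1117 protein-coding genes at 0, as fewer libraries were read. The share of the 100 highest genes (43.4%) was 20.3% of recovered fragments and 23.7% without mitochondrially encoded genes, and 43.2% to 43.7% when each library was left out. Mitochondrially encoded genes took 28.0% of FPKM, 7.48% of recovered fragments, and 27.6% to 28.4% when each library was left out. Fragments, unlike FPKM, are not divided by length. The share of promoters with TATAAA at 100 FPKM and over (13.2% on either strand of 250 bases) was 9.14% on the gene's strand alone and 7.61% on that strand within 50 bases of the start. The level classes of the promoter analysis held protein-coding genes only. The 27305 promoters set beside them were not filtered by gene type, and an alternative with protein-coding promoters only was not run. For the 36 always-named genes with a row, 0 of 180 values under scaling, the median or a left-out library crossed 1 FPKM. Medians and means of fewer libraries always lie within the range of the 3 values. Scaling factors were 0.995 to 1.007, so these alternatives could move a level little beyond that range. Depth limits the lowest levels: below 1 FPKM the median protein-coding gene rested on 21 fragments in all.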
